A study of Mus musculus with 6 samples.

Results

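The 9 genes described here serve the selection of natural killer T (NKT) cells in the mouse thymus. They are the CD1d heavy chains Cd1d1 and Cd1d2, the SLAM family receptor genes Slamf1, Slamf6, Ly9, Cd84 and Cd48, the adaptor gene Sh2d1a and the lineage factor gene Zbtb16. They were taken by symbol from the authors' deposited table of 37867 gene models, where each of the 9 had 1 model. RNA was sequenced from CD4+CD8+ double-positive (DP) thymocytes, the stage at which the rearranged T cell receptor is first tested, in 3 sorted populations from miR181a1/b1 -/- mice (knockout) and 3 from wild type mice, all of the C57bl6 strain. No age is given in the labels, nor is it stated whether separate animals gave the populations of a genotype or whether wild type littermates were used. The table gives 1 pooled value per genotype in FPKM (fragments scaled to transcript length and library size), so no SD over the populations is available and depth is unknown. The deposited test statistic implies a standard error for each log2 ratio, which is the only error given here and the base of every 95% interval. How that statistic treats the spread between populations is unknown, so the intervals may reflect technical spread only. All ratios are knockout over wild type.

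CD1d is a relative of class I MHC molecules that presents lipids, and NKT cells carry T cell receptors that recognise CD1d with its lipid. Conventional T cells are selected by thymic epithelium, whereas NKT precursors are selected by CD1d on other DP thymocytes. SLAM family receptors on the touching thymocytes give a further signal, which the adaptor SAP, encoded by Sh2d1a, passes to the kinase Fyn, and the transcription factor PLZF, encoded by Zbtb16, then sets the effector programme of the new NKT cell. The microRNA genes deleted in knockout cells are known in mice to be needed for normal NKT cell numbers. Their own transcripts were not analysed here, so the deletion rests on the labels. How much of the mature microRNAs the knockout cells retain was not measured here. Comparing the genotypes therefore bears on whether DP thymocytes with these microRNA genes deleted carry different amounts of the transcripts used in that selection.

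The mature microRNAs of the deleted genes are shown because their seed, bases 2 to 8, can be compared with the members' transcripts. Both have the same seed, printed in capitals, and the RefSeq positions on GRCm38.p6 are chr1:137966468-137966490 for the product of Mir181a-1 and chr1:137966650-137966673 for that of Mir181b-1, both on the plus strand.
mmu-miR-181a-5p: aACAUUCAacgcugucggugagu
mmu-miR-181b-5p: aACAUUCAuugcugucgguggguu

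The letters TGAATGT pair with bases 2 to 8 of this seed, and the shorter GAATGT within them pairs with bases 2 to 7. In 1 GENCODE M21 reference transcript per gene, read on the transcript strand only, TGAATGT occurred in the 3′ UTR of 1 of the 9 members, Cd84. It occurred in 17.4% of 8950 coding genes averaging 1 FPKM or more. GAATGT without the preceding T occurred once more in Cd84 and once in Sh2d1a, and GAATGT in either form was present in 34.1% of the same genes. The matches are printed here with the paired letters in capitals. Positions count from the first base of the 3′ UTR, which is 2121 bases long in Cd84 and 616 in Sh2d1a.
Cd84, position 421: ctaatgtggcgaGAATGTatgttaccat
Cd84, position 1004: agaggctattcTGAATGTcactgaatag
Sh2d1a, position 411: gaagttgtaacgGAATGTtatacctctc

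The first Cd84 match is followed by A, the base that often flanks microRNA sites, and the other two are not. The letters GAATGT were not found in the 3′ UTRs of the reference transcripts of Cd1d1, Cd1d2, Slamf1, Slamf6, Ly9, Cd48 and Zbtb16. In the coding bases of the 9 members, TGAATGT had 1 match, in Ly9, and no share over all genes was computed for coding bases. A match is a description of the letters, and binding was not measured.

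None of the 8 tested members differed between the genotypes at a q under 0.05 by the authors' deposited table, where 17.1% of 13834 tested models did. At an unadjusted p under 0.05 there was 1 such member, Cd84, against 27.4% of the tested models. Zbtb16 was too low for the authors to test. No member passed at a q under 0.01 or under 0.1 either, where 10.9% and 21.6% of the models did, or when only the models averaging 1 FPKM or more were adjusted, where 19.8% did. The 8 ratios split evenly, with 4 above and 4 below 0 on the log2 scale, beside 40.4% above and 59.6% below among the tested models. The 4 positive ratios were those of Cd84, Slamf6, Ly9 and Cd48, all SLAM family receptor genes, and the 4 negative ones were those of Cd1d1, Cd1d2, Sh2d1a and Slamf1. The median log2 ratio of the 8 was -0.03, beside -0.17 over the tested models of the series. Since these are bulk samples, fewer cells of a type and less RNA per cell cannot be told apart in any of these values.

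**Figure D1:**
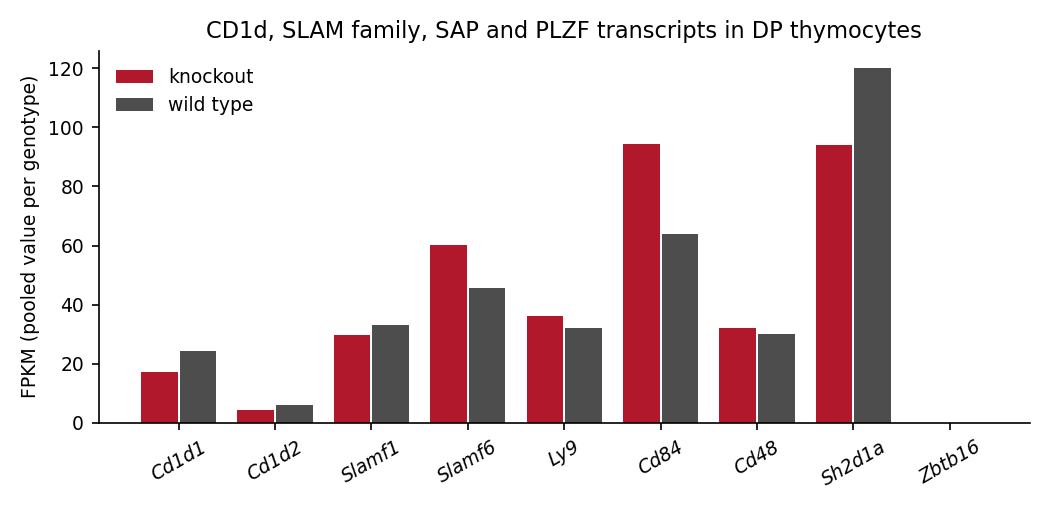
Pooled FPKM of the 9 members (vertical axis, linear from 0), with the knockout bar on the left and the wild type bar on the right of each pair. There are no error bars because the table holds 1 value per genotype. Sh2d1a and Cd84 stand highest, Cd1d2 is the lowest of the visible genes and Zbtb16 has no visible bar.

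The levels of the members spanned a wide range, and 8 of the 9 were above 1 FPKM in both genotypes. In the knockout Cd84 stood highest at 94.4 FPKM, with Sh2d1a beside it at 94.1 FPKM. They were followed there by Slamf6, Ly9, Cd48, Slamf1, Cd1d1 and Cd1d2. In the wild type the order began with Sh2d1a at 119.9 FPKM and Cd84 at 64.03 FPKM, and went on with Slamf6, Slamf1, Ly9, Cd48, Cd1d1 and Cd1d2. The deposited table gives no error for a level, so whether neighbours in either order differ beyond their spread was not tested. Slamf1, Ly9 and Cd48 lay between 29.8 and 36.02 FPKM in knockout cells, and between 29.96 and 33.1 FPKM in wild type cells. Among the tested models of the series, the mean level of Sh2d1a lay at percentile 96.7, that of Cd84 at percentile 94.9, that of Cd1d1 at percentile 73.9 and that of Cd1d2 at percentile 40.9.

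The genes of the antigen-presenting molecule had the lowest ratios of the set, and neither passed the threshold. Cd1d1 encodes the CD1d molecule that NKT cells of C57BL/6 mice depend on, and lies at chr3:86799759-86803259 (mm9, as the deposited table gives it). It stood at 17.1 FPKM in knockout cells and 24.2 FPKM in wild type cells, a log2 ratio of -0.50 (implied standard error 0.27, q = 0.21 by the authors' deposited table). Its 95% interval ran from 0.493-fold to 1.02-fold, which leaves out a doubling in knockout cells. It leaves out neither a halving nor equal levels. Cd1d2 lies 6305 bases away at chr3:86790507-86793454. GENCODE classes it as a polymorphic pseudogene, since its reading frame is broken in some strains. It stood at 4.35 FPKM in knockout cells and 5.96 FPKM in wild type cells, a log2 ratio of -0.45 (implied standard error 0.34, q = 0.424 by the authors' deposited table). The Cd1d1 level was 3.94 times that of Cd1d2 in knockout cells and 4.06 times in wild type cells.

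These copies are near-identical, which bears on how far their values can be kept apart. Over 1008 aligned coding bases, the reference transcripts of Cd1d1 and Cd1d2 were 96.7% identical, with a longest identical run of 242 bases. Of all stretches of 50 bases in the Cd1d1 reference transcript, 25.6% occur unchanged in a Cd1d2 transcript, and 40.7% of those of Cd1d2 occur in Cd1d1. The read length and the authors' treatment of reads that match both genes were not stated in the labels or the file, so the split between the pair is uncertain. With their FPKM added, the pair stood at 21.5 in knockout cells and 30.2 in wild type cells, a log2 ratio of -0.49. The stretch of 60 coding bases with the most differences, coding bases 400 to 459 in each, is shown with its 8 differing bases in capitals.
Cd1d1: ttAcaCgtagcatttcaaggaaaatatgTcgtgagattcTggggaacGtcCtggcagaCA
Cd1d2: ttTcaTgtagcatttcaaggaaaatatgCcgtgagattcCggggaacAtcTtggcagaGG

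Of the SLAM family receptor genes, Cd84 had the largest ratio and the largest absolute ratio of all 8 tested members. Cd84 encodes a receptor that binds its own kind on a neighbouring cell, and lies at chr1:173770734-173818817 (mm9). It stood at 94.4 FPKM in knockout cells and 64.03 FPKM in wild type cells, 1.47-fold (log2 0.56, implied standard error 0.26). Its p was 0.0328 and its q 0.135 by the authors' deposited table, and it was the only tested member whose 95% interval, 1.03-fold to 2.10-fold, did not hold 1. The call depends on the centring: with the ratios set against the median of the tested models, its log2 ratio was 0.73 with a Benjamini-Hochberg adjusted p of 0.0419 from a normal tail, where 14.4% of models passed. With the trend of GC content and transcript length removed it was 0.34, with an adjusted p of 0.832.

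Slamf6 encodes Ly108, the self-binding receptor that with SLAM is known to act in NKT selection. It stood at 60.3 FPKM in knockout cells and 45.7 FPKM in wild type cells, 1.32-fold with a 95% interval of 0.88-fold to 1.98-fold (log2 0.40, q = 0.427 by the authors' deposited table). A model named linc-Slamf6-AS has the same bounds, chr1:173844838-173883298 (mm9), and stood at 21.3 FPKM in knockout cells and 22.9 FPKM in wild type cells. The labels name a library kit without strand information, so reads of the gene and of its antisense partner cannot be told apart. With both models added, the log2 ratio of Slamf6 was 0.25.

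The other 3 receptor genes had ratios near 0. Slamf1 encodes SLAM (CD150), the self-binding receptor that gave the family its name. It stood at 29.8 FPKM in knockout cells and 33.1 FPKM in wild type cells, with a 95% interval of 0.635-fold to 1.28-fold (log2 -0.15, q = 0.803 by the authors' deposited table). Its ratio was 0.016 on the log2 scale after centring, so its sign depends on the centring. Of the 8 tested members, 7 had a 95% interval that held equal levels, so their directions are not settled. Ly9 encodes another self-binding receptor, CD229, and stood at 36.02 FPKM in knockout cells and 32.1 FPKM in wild type cells (log2 0.17, q = 0.751 by the authors' deposited table). Cd48 encodes a lipid-anchored member that binds CD2 and the receptor 2B4, and stood at 31.97 FPKM in knockout cells and 29.96 FPKM in wild type cells (log2 0.09, q = 0.904 by the authors' deposited table). The intervals of Ly9 and Cd48, 0.809-fold to 1.56-fold and 0.742-fold to 1.53-fold, leave out a doubling and a halving. Summed over the 5 receptor genes, FPKM came to 252.5 in knockout cells and 204.9 in wild type cells, with a median log2 ratio of 0.17.

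The remaining members of the family were nearly silent in both genotypes. Cd244, which encodes 2B4, stood at 0.0402 FPKM in knockout cells and 0.00955 FPKM in wild type cells. Slamf7, an activating receptor of NK and plasma cells, stood at 0.0538 FPKM in knockout cells and 0.0443 FPKM in wild type cells. Together with Slamf8, Slamf9 and the SAP-related adaptors Sh2d1b1 and Sh2d1b2, they made up a list of 6 genes of which the authors tested none. The summed FPKM of these 6 was 0.137 in knockout cells and 0.0989 in wild type cells.

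Sh2d1a, on chromosome X, encodes SAP, the small SH2-domain adaptor that binds the tails of SLAM receptors. Its model lies at chrX:39841669-39877340 (mm9). It stood at 94.1 FPKM in knockout cells and 119.9 FPKM in wild type cells, 0.785-fold with a 95% interval of 0.501-fold to 1.23-fold. On the log2 scale its ratio was -0.35 (implied standard error 0.33, q = 0.565 by the authors' deposited table). Its level was the highest of the 9 members in wild type cells and, just below Cd84, next to the highest in knockout cells.

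Zbtb16, the PLZF gene, was listed at 0 FPKM in knockout cells and at 0.0145 FPKM in wild type cells. Estimation can fail and leave a 0 in tables of this type, where 32 tested models had a 0 for the knockout and 22 for the wild type, and no fold is given. Its status was not tested, and the highest mean of any model with that status was 0.314 FPKM. The effector and surface genes of mature NKT cells spanned a wide range, and 10 of 16 matched models were below 1 FPKM in both genotypes. The cytokine genes Il4, Ifng, Il13 and Il17a were listed at 0 in both genotypes. Klrb1c, the NK1.1 gene, shares its model with Klrb1b, and that model stood at 0.00375 FPKM in knockout cells and 0.0673 FPKM in wild type cells.

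**Figure D2:**
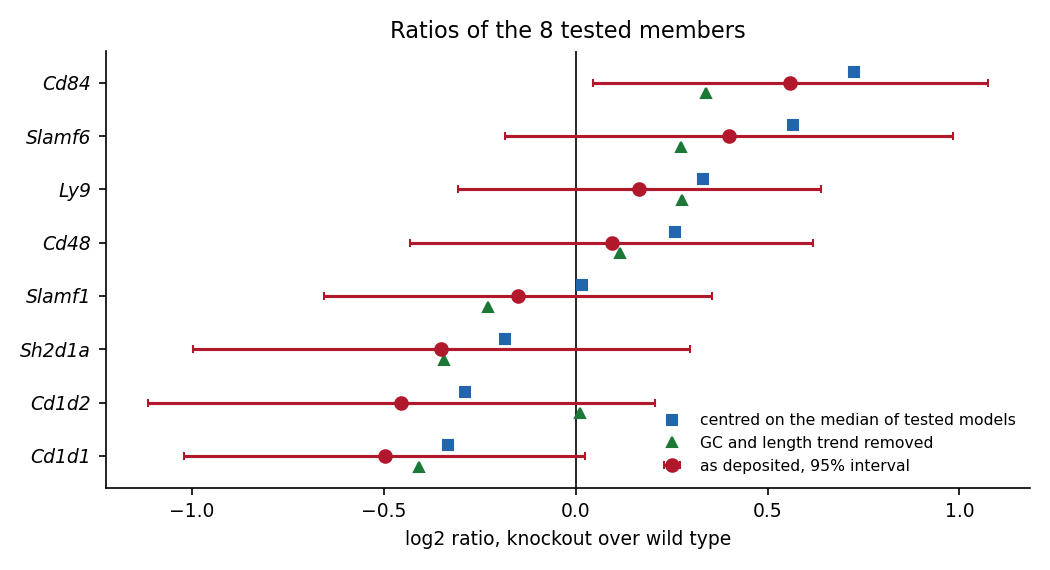
Log2 ratio, knockout over wild type (horizontal axis), of the 8 tested members. Red points with bars give the deposited ratio and its 95% interval, blue squares the ratio centred on the median of tested models, and green triangles the ratio with the GC and length trend removed. Only the bar of Cd84 clears 0, Slamf1 changes sign with the centring and Cd1d2 with the removal of the trend.

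The 5 receptor genes sit within 1 stretch of chromosome 1, shared with other genes. From the start of Cd244 to the end of Slamf8, chr1:173489323-174520699 (mm9) or 1031 kb, the table held 9 SLAM family models, of which 5 were tested, and 25 other models, of which 13 were tested. None of the 5 and 2 of the 13 passed the threshold, both lower in knockout cells, beside 15.3% lower over all tested models. The called models were Vangl2, a planar cell polarity gene at 1.80 FPKM in knockout cells and 6.09 FPKM in wild type cells (log2 -1.76, q = 2.29e-06 by the authors' deposited table), and Igsf8, a membrane protein gene at 4.12 FPKM in knockout cells and 10.9 FPKM in wild type cells (log2 -1.40, q = 0.000137 by the authors' deposited table). Vangl2 is the first tested gene beyond Slamf6. Once the trend of GC content and length was taken out, Vangl2 stayed past the threshold at a log2 ratio of -1.38 with an adjusted p of 0.0031, and Igsf8, at 0.12, did not.

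The other tested models of the stretch were not called by the authors' deposited table. Those between the receptor genes were linc-Slamf1 at a log2 ratio of -0.19 and linc-Cd84 at 0.34. Farther along came Ncstn, a gamma-secretase subunit, at -0.39, Copa, a coatomer subunit, at 0.07, the peroxisome biogenesis gene Pex19 at -0.46 and Wdr42a at -0.40. Pea15a stood at -0.18, Pigm, an enzyme of GPI anchor synthesis, at 0.34, the actin-binding gene Tagln2 at 0.12 and linc-Ccdc19 at 0.85, where the mean level was under 1 FPKM. The ratio of Tagln2 moved to 1.01 once the trend of GC content and length was taken out and then passed, with an adjusted p of 0.00603. The median log2 ratio as deposited was 0.17 over the 5 receptor genes and -0.18 over the 13 other models. With the trend of GC content and length taken out, it was 0.27 over the receptor genes. No such median was computed for the other models, so this contrast is not corrected for the trend.

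**Figure D3:**
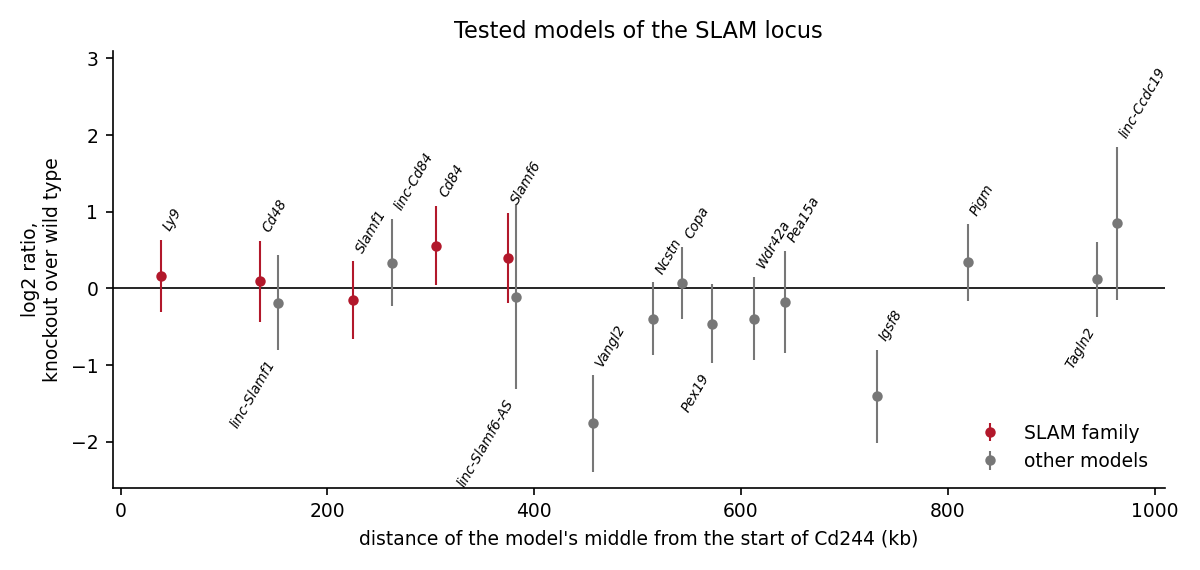
Log2 ratio, knockout over wild type (vertical axis), of the 18 tested models between Cd244 and Slamf8, against the distance of each model's middle from the start of Cd244 in kb. Bars are 95% intervals, SLAM family genes are red, and linc-Slamf6-AS and linc-Ccdc19 are drawn 8 kb to the right of their place so that they can be seen. Vangl2 and Igsf8 lie well below 0, and the 5 red points lie between -0.15 and 0.56.

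Genes that act with the members were described from lists written with earlier results of these data known. Over 5 lists with tested genes, 15 of 66 tested genes passed the threshold, 2 higher and 13 lower in knockout cells. With the ratios centred, 5 were higher and 6 lower, where the background was 3.6% higher and 10.8% lower. With the GC and length trend removed, only Id3 passed, among 61 genes that had a corrected value, where the background was 1.8%. The background for each list was 1.79% of tested models called higher and 15.3% called lower.

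In SLAM and SAP signalling, 4 of 12 tested genes were lower and none higher in knockout cells, with a median log2 ratio of -0.44. With the GC and length trend removed the median was 0.0005, and with centring 1 gene, the Ras inhibitor gene Rasa1, was higher and 2 were lower. The kinase Fyn, the direct partner of SAP, stood at 45.4 FPKM in knockout cells and 47.1 FPKM in wild type cells (log2 -0.05, q = 0.95 by the authors' deposited table). Dok2, a docking adaptor, fell to 10.3 FPKM in knockout cells, against 39.3 FPKM in wild type cells (log2 -1.94, q = 3.3e-09 by the authors' deposited table), and its relative Dok1 fell to 2.86 FPKM in knockout cells, against 6.64 FPKM in wild type cells (q = 0.0136 by the authors' deposited table). Ptpn6, the phosphatase SHP-1, fell to 58.2 FPKM in knockout cells, against 97.7 FPKM in wild type cells (q = 0.0185 by the authors' deposited table). Lck, the main Src kinase of thymocytes, fell to 595 FPKM in knockout cells, against 983 FPKM in wild type cells (q = 0.0323 by the authors' deposited table). None of these 4 was called once the trend of GC content and length was taken out, where Ptpn6 stood at 0.0066, Lck at -0.09, Dok1 at -0.04 and Dok2 at -0.85 on the log2 scale.

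In the assembly, trafficking and lipid loading of CD1d, 1 of 20 genes was higher and 3 were lower, with a median log2 ratio of -0.24, which was -0.09 with the trend removed. Lipa, the lysosomal acid lipase, rose to 225 FPKM in knockout cells, against 148 FPKM in wild type cells (log2 0.60, q = 0.0362 by the authors' deposited table). The light chain B2m, which pairs with CD1d, stood at 686 FPKM in knockout cells and 498 FPKM in wild type cells (log2 0.46, q = 0.133 by the authors' deposited table). Hexa, a subunit of the lysosomal hexosaminidases, fell to 4.37 FPKM in knockout cells, against 8.42 FPKM in wild type cells (q = 0.0171 by the authors' deposited table). Ap1m1, a subunit of the sorting adaptor AP-1, fell to 36.02 FPKM in knockout cells, against 64.98 FPKM in wild type cells (q = 0.0236 by the authors' deposited table). Cd74, the invariant chain, fell to 1.99 FPKM in knockout cells, against 7.89 FPKM in wild type cells (log2 -1.98, q = 4.08e-05 by the authors' deposited table). Cd74 is abundant in B cells and dendritic cells, and the summed level of 9 macrophage and dendritic cell markers was 3.70 FPKM in knockout cells and 7.08 FPKM in wild type cells. The part of such cells in the Cd74 result was not tested. None of these called genes passed once the trend of GC content and length was taken out, where the log2 ratio of Lipa was 0.54 (adjusted p 0.253), that of Cd74 -0.96 (adjusted p 0.309), that of Hexa -0.20 and that of Ap1m1 -0.06.

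No gene of glycolipid synthesis passed, of 6 tested, at a median log2 ratio of 0.31, which was 0.016 with the GC and length trend removed. Ugcg, which makes glucosylceramide, stood at 36.8 FPKM in knockout cells and 27.4 FPKM in wild type cells (q = 0.272 by the authors' deposited table). Gnpat, an enzyme of ether lipid synthesis, stood at 23.9 FPKM in knockout cells and 30.97 FPKM in wild type cells (q = 0.423 by the authors' deposited table).

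Among factors of the NKT lineage, 6 of 20 tested genes were lower and none higher in knockout cells, with a median log2 ratio of -0.60, which was -0.04 with the trend removed. Id3, an inhibitor of E proteins that restrains the expansion of innate-like T cells, fell to 6.57 FPKM in knockout cells, against 40.5 FPKM in wild type cells, a log2 ratio of -2.62 (implied standard error 0.36, q = 9.46e-11 by the authors' deposited table). It was still called, at -1.68 with an adjusted p of 0.000748, once the trend of GC content and length was taken out. Egr1, induced by T cell receptor signals, fell to 34.05 FPKM in knockout cells, against 53.3 FPKM in wild type cells (q = 0.0423 by the authors' deposited table). Its relative Egr2, which acts upstream of Zbtb16, stood at 4.33 FPKM in knockout cells and 6.62 FPKM in wild type cells (q = 0.164 by the authors' deposited table).

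The other 4 lower genes were Myc, Hdac7, Runx1 and Bcl6. Myc, needed for the expansion of NKT precursors, fell to 4.91 FPKM in knockout cells, against 13.1 FPKM in wild type cells (q = 0.00158 by the authors' deposited table). Hdac7, a deacetylase that binds PLZF and was listed under its older name Hdac7a, fell to 88.7 FPKM in knockout cells, against 199 FPKM in wild type cells (q = 4.7e-05 by the authors' deposited table). Runx1, a factor of thymocyte development, fell to 20.6 FPKM in knockout cells, against 36.7 FPKM in wild type cells (q = 0.0415 by the authors' deposited table). Bcl6, a repressor related to PLZF, fell to 41.8 FPKM in knockout cells, against 75.4 FPKM in wild type cells (q = 0.00839 by the authors' deposited table). When the GC and length trend was removed, Egr1 and Hdac7 turned to 0.27 and 0.18 on the log2 scale, and Myc stood at -0.17. Runx1 was farther from 0 than before, at -0.97 with an adjusted p of 0.0739, and Bcl6 stood at -0.56 with an adjusted p of 0.376. Tcf12, which encodes the E protein HEB and supports the survival of DP cells, stood at 283 FPKM in knockout cells and 251 FPKM in wild type cells and did not pass.

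Of the NKT effector and surface genes, 8 of the 16 matched models could be tested. Il18r1, a chain of the interleukin-18 receptor, rose to 1.17 FPKM in knockout cells, against 0.13 FPKM in wild type cells (log2 3.17, implied standard error 0.96, q = 0.00871 by the authors' deposited table). With a mean below 1 FPKM it had no corrected value. Icos, a costimulatory receptor, stood at 7.66 FPKM in knockout cells and 6.59 FPKM in wild type cells, and the signalling adaptor Traf1 at 7.43 FPKM in knockout cells and 11.1 FPKM in wild type cells, and neither passed. The activation marker Cd69 was the most abundant of the list, at 34.5 FPKM in knockout cells and 25.0 FPKM in wild type cells (q = 0.26 by the authors' deposited table). The median log2 ratio of the 8 was 0.36, and 0.11 over the 4 that had a corrected value.

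**Figure D4:**
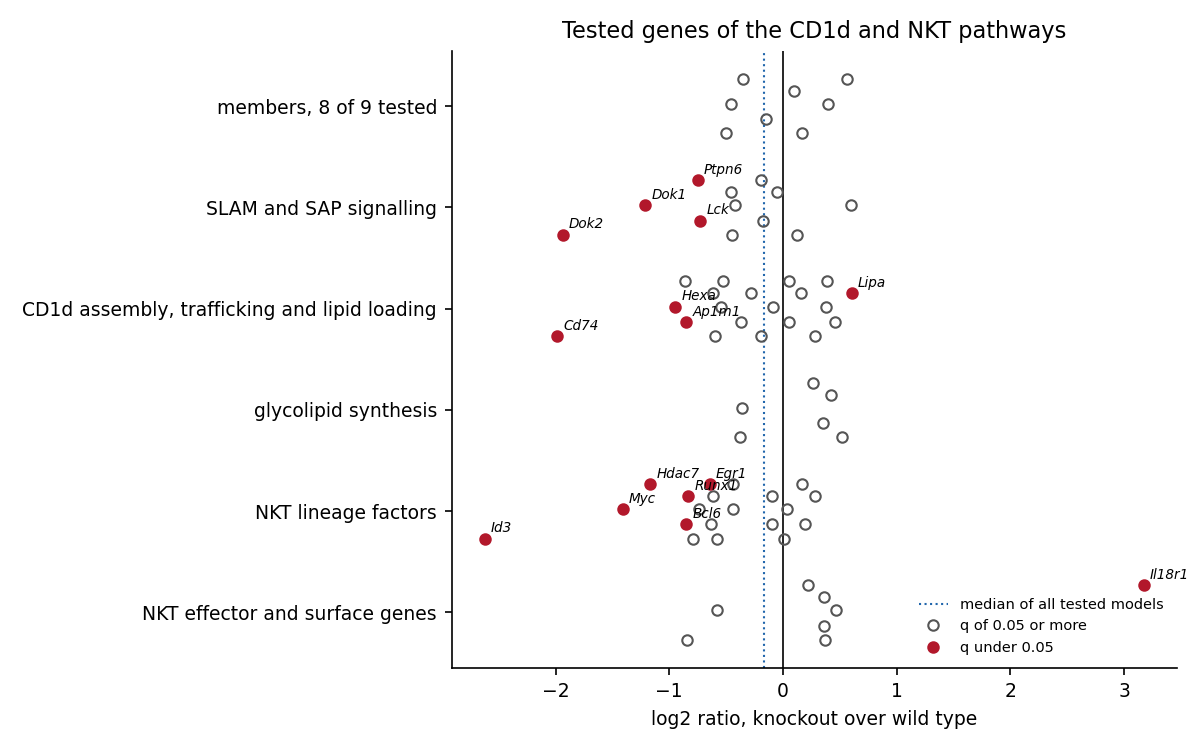
Log2 ratio, knockout over wild type (horizontal axis), of the tested members and of the tested genes in 5 lists, 1 point per gene and spread vertically within a row for legibility. Filled red points had a q under 0.05 by the authors' deposited table and are named, and the dotted line marks the median of all tested models at -0.17. The row of the members holds open points only, while Id3 and Il18r1 lie farthest to the left and right.

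The ratios of the series followed base composition, and the members covered the part of that range poorer in G and C. Over 9000 coding genes averaging 1 FPKM or more, the log2 ratio fell with the GC content of the transcript (Spearman's rho -0.763). This correlation runs across genes that share the same libraries and are no independent replicates. The 8 tested members had between 41.6% (Cd84) and 50.8% (Cd1d2) GC, against a median of 50% over those genes. Genes within these bounds, 4122 in all, had a median log2 ratio of 0.01. The value of the trend at the GC content and length of a member was 0.22 for Cd84 and 0.13 for Slamf6. It was -0.46 for Cd1d2, whose log2 ratio was then 0.010 with the trend removed. Cd1d1, where the trend stood at -0.09, had a log2 ratio of -0.41 with an adjusted p of 0.725, and Sh2d1a had -0.34. No member passed after the removal, where 1.8% of the 9000 genes did.

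**Figure D5:**
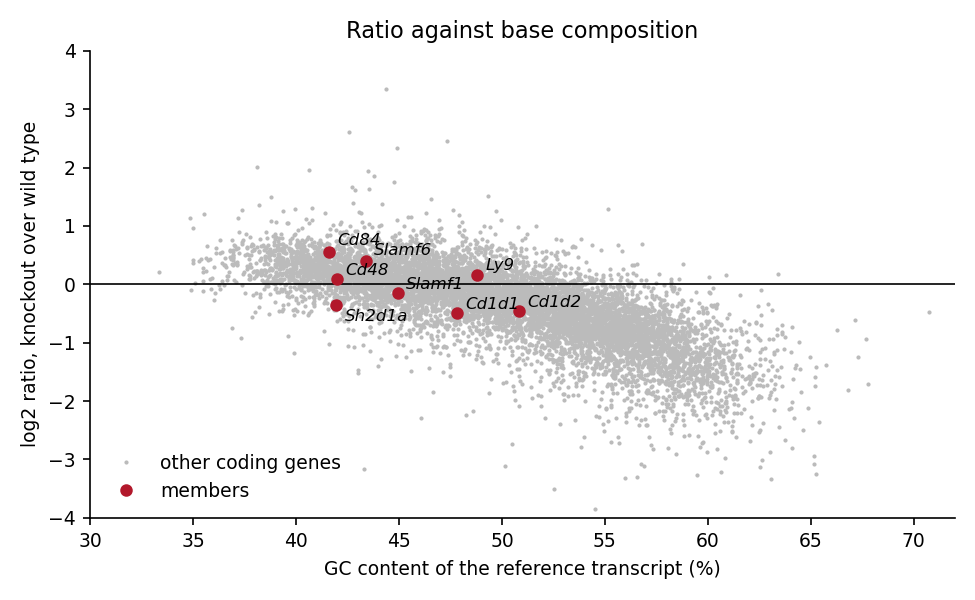
Log2 ratio, knockout over wild type (vertical axis), against the GC content of the reference transcript in percent (horizontal axis), for coding genes averaging 1 FPKM or more (grey) and the 8 tested members (red), with 6 genes outside the axes. The grey cloud slopes downward, and the members lie inside it between 41.6% and 50.8% GC.

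Genes with TGAATGT in the 3′ UTR of their reference transcript, 1557 in number, had a median log2 ratio of 0.08, against -0.33 for the 7391 without it. Their median GC content was 46.5% against 50.8%, and with the GC and length trend removed the medians were 0.06 and -0.01. Cd84, the member with that 3′ UTR match, stood at 0.34 on the same corrected scale, with an adjusted p of 0.832. The other tested members, without it in the 3′ UTR, ran from -0.41 (Cd1d1) to 0.28 (Ly9). The 3′ UTR of Cd84 has 2121 bases, against a median of 1012 over the coding genes searched. Whether the match bears on the ratio was not tested.

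By level in the pair of genotypes, the tested models nearest to Sh2d1a, the member with the highest mean, were Lbr at 94.5 FPKM in knockout cells and 121.8 FPKM in wild type cells and Eif3f at 96.6 FPKM in knockout cells and 119.8 FPKM in wild type cells. Those nearest to Cd84 were Pnrc1 at 94.7 FPKM in knockout cells and 65.1 FPKM in wild type cells and C1galt1 at 93.1 FPKM in knockout cells and 64.9 FPKM in wild type cells. Likeness was the distance between log2 FPKM over 2 values per gene, and it was between 0.023 and 0.037 for these 4.

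The sorted cells carried the markers of DP thymocytes in both genotypes. The lowest of the DP markers named here stood at 9.59 FPKM in knockout cells, against 26.1 FPKM in wild type cells (Ptcra, q = 2.89e-05 by the authors' deposited table). Aqp11 also fell, while Cd4, Cd8a, Cd8b1, Rag1 and Rag2 did not pass. In all, 2 of 8 tested DP markers were called lower, beside 15.3% of all tested models. With the GC and length trend removed, Ptcra stood at -0.43 on the log2 scale (adjusted p 0.75) and was not called. Aqp11, at -0.83 (adjusted p 0.0412), was still called. Of 5 double-negative markers, 4 were tested, at a median log2 ratio of -0.002. Of these 1 was called, higher in knockout cells, beside 1.79% of all tested models called higher. Il2ra rose to 29.4 FPKM in knockout cells, against 2.89 FPKM in wild type cells (q listed as 0 by the authors' deposited table). Kit at -0.86, Dtx1 at -0.37 and Cd44 at 0.36 on the log2 scale did not pass, and Hes1 was untested. With the GC and length trend removed, the median of the 3 that had a corrected value was 1.12. Il2ra stood there at 3.19 and was still called, while Dtx1 at 1.12 (adjusted p 0.147) and Cd44 at 0.17 did not pass. Of the 9 macrophage and dendritic cell markers summed above, 4 were tested and none was at 0. Itgam alone was called, lower in knockout cells, beside the 15.3% of all tested models called lower. Itgam was not called with the trend removed (log2 -1.02, adjusted p 0.196). For 5 B cell markers the sum was 15.95 FPKM in knockout cells and 20.4 FPKM in wild type cells, nearly all from Cd79b. For 5 NK markers it was 0.173 FPKM in knockout cells and 0.455 FPKM in wild type cells, with Ncr1 listed at 0 in wild type cells. For 5 epithelial markers it was 0.959 FPKM in knockout cells and 2.37 FPKM in wild type cells. Epcam, the only tested marker of these, was called lower, and Foxn1 was listed at 0 in knockout cells. Epcam was not called with the trend removed (log2 -0.81, adjusted p 0.44). For 3 red cell markers the sum was 0.67 FPKM in knockout cells and 1.35 FPKM in wild type cells. Cd48, Cd84 and Ly9 are also expressed by such blood cells, and the part of these cells in the members' values was not tested.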

How the data were processed

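The 6 libraries came from sorted CD4+CD8+ thymocytes and were grouped by the genotype in their labels. RNA extraction used Trizol or the RNeasy kit, without a statement of which library had which, and TruSeq RNA library preparation followed, per the labels' protocols. The submitters' processing notes name TopHat2 and the build mm9. The counting and testing tool and the annotation are not given in the sources used. Per the file headers, the authors deposited 1 FPKM value per genotype, a log2 ratio with wild type on top, a test statistic, p-values, q-values and a status for each model. Checked on the file, the deposited q was the Benjamini-Hochberg adjusted p over 13834 tested models (largest difference 1.89e-06). How the statistic treats the spread between libraries is unknown, so the p-values and the intervals may reflect technical spread only.

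The sign of the ratio was reversed, so that the knockout is on top. The implied standard error is the ratio divided by the statistic, and the normal 95% interval follows from it. No test of the libraries was possible, as the design had foreseen, and the calls are the authors' q under 0.05. As alternatives, ratios were centred on their median, or freed of a robust spline (5 pieces each) of GC content and log2 length over 9000 coding genes averaging 1 FPKM or more, using statsmodels 0.14.6 and scikit-learn 1.9.0. A normal tail of the result over its implied standard error gave p, adjusted by Benjamini-Hochberg. Both fits were run on ratios simulated from the fitted trend or from a constant shift. Such a run cannot show whether either model suits the real data. GC content and 3′ UTRs came from 1 GENCODE M21 transcript per gene (GRCm38), matched by symbol or older symbol, and transcripts over 1.2 times the span of the model were left out. No coordinates were converted. Coding bases were aligned with Biopython 1.88.

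The members and lists were chosen with earlier results of these data known. The text names the 9 members, every gene of a list with a q under 0.05 or else its 2 most abundant, the tested models of the SLAM locus and the nearest models by level. Other genes of the lists were named after their values were seen. Of the genes in the lists, Mir150, Ighm and Hba-a1 were not matched. A few list genes are not reported here.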

Additional observations from a re-analysis of the deposited data

How the results depend on the processing

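No member passed at a q under 0.01 or under 0.1, among models of at least 1 FPKM alone, or once the trend of GC content and length was taken out. With the ratios centred, 1 member passed, Cd84. The genes of the lists that passed numbered 15 of 66 as deposited, beside 17.1% of all models, 7 of 66 at a q under 0.01 (10.9%), 19 of 66 at a q under 0.1 (21.6%), 14 of 61 among models of at least 1 FPKM (19.8%), 11 of 66 with centred ratios (14.4%) and 1 of 61 after removal of the trend (1.8%), where the cause was not tested. The alternatives for the lists and the summed models (linc-Slamf6-AS with Slamf6, Cd1d1 with Cd1d2) were chosen after seeing the data. Of the 8 log2 ratios, that of Slamf1 reversed to 0.016 when centred and that of Cd1d2 to 0.010 after removal of the trend. The 8 kept their sign with pseudocounts of 0.1 and 1 and with models of 1 symbol summed. Zbtb16 had no ratio. No paired analysis was possible because the table holds 1 pooled value per genotype, and for the same reason no library could be left out. The depth of the libraries is unknown, so it cannot be said how small a level could have been seen. The implied standard errors of the 8 log2 ratios ran from 0.24 to 0.34.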
